A study of Mus musculus with 8 samples.

Results

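Macrophages that expressed mouse STING were compared with macrophages that carried no STING transgene, across the 12668 of 53715 deposited genes with at least 1 RPKM in at least 2 of the 4 libraries concerned. RPKM is the number of reads at a gene, divided by its length in kilobases and by the depth of the library. All cells are Sting-/- mouse macrophages, so the endogenous gene is knocked out in both groups. In the mSTING group they stably expressed mouse STING, and in the no_transgene group the transgene is given as none. All cells of both groups had received 500 µg/ml CMA for 4 h, so the comparison includes no unstimulated cells. The titles of the no_transgene samples carry MSCV2.2, the name of a retroviral vector. Each group has 2 libraries of polyadenylated RNA, from cells plated at 4 M per dish. Whether the paired libraries derive from different cultures is not given, and p-values therefore reflect the variation among these libraries alone, which may be technical. The other groups of the series, labelled dCTT and zfCTT by their transgene, have 2 libraries each, carry the same genotype and treatment, and entered the fit to share its estimate of the spread.

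STING is an adaptor of the endoplasmic reticulum that binds the cyclic dinucleotide made by cGAS when DNA appears in the cytosol. CMA (10-carboxymethyl-9-acridanone) is a synthetic ligand of the mouse protein. Bound STING moves towards the Golgi, where its C-terminal tail recruits the kinase TBK1, and TBK1 phosphorylates IRF3. IRF3 with NF-κB switches on interferon-β, and secreted interferon acts through its receptor, JAK kinases and a complex that contains STAT2 and IRF9 to switch on the interferon-stimulated genes. STING signalling also reaches NF-κB, whose targets in macrophages include cytokines, chemokines and NF-κB's own inhibitors.

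Recovered depth was 88.1 and 88.2 M reads in mSTING, against 27.7 and 101 M reads in no_transgene. Here and below, paired values are those of library 1 and then library 2. Tmem173, the gene of STING, had 10.6 and 22.2 RPKM in mSTING, against 3.23 and 2.42 RPKM in no_transgene. Both mSTING libraries lay above both no_transgene libraries, library 2 of mSTING had the higher value, and reads at this gene were also present without a transgene. The part of the gene that the knockout allele lacks is not given in the labels, so these reads cannot be assigned to a whole or a shortened transcript. Of 8 macrophage markers, 7 were above 1 RPKM in all 4 libraries and Mertk was under 1 RPKM in all. Their summed level was 694 and 809 RPKM in mSTING, against 1101 and 955 RPKM in no_transgene. The 8 fibroblast, 8 T and NK cell, 7 dendritic cell and 5 epithelial markers summed to under 1 RPKM per list in every library, with Cd3e, Col1a2 and Krt19 at 0. The 8 neutrophil markers summed to 0.203 and 0.202 RPKM in mSTING, and to 0.957 and 0.185 RPKM in no_transgene, with Ly6g at 0. Of 6 B cell markers, Pax5 was at 0 and 1 was above 1 RPKM, Ighm, with 19.8 and 16.8 RPKM in mSTING, against 33.4 and 16.9 RPKM in no_transgene.

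A pair of libraries stood apart. Library 1 of no_transgene was the shallowest of the 4, and across the genes tested the log2 values of the no_transgene libraries correlated at r = 0.947, against 0.976 between the mSTING libraries. The log2 difference of library 1 minus library 2 in no_transgene correlated with that in dCTT at r = 0.759, and in zfCTT at 0.45. The deviation was thus not confined to no_transgene, and its cause was not tested. Library 1 of mSTING held higher values than library 2 for most genes that differed upwards, as given below. Counts of list members higher by at least 1 are given below with and without mSTING library 1. Of the genes described below, these share exonic bases with another annotated gene, so that reads of the 2 cannot be told apart where strand was not used, and their values are uncertain: Cxcl10, Irf7, Irf9, Rtp4, Usp18, Oasl1, Dhx58, Trex1, Igtp, Gbp2, Cgas, Irf1, Irf5, Irf3, Ifnar2, Ikbke, Nfkb2, Bcl3, Icam1, Bcl2a1b, Cd74, Tap1, Tapbp, Ina, Csf1r, Mlxipl, Selenop, C5ar2, P2rx7, Eef1a1, Junb, Cdkn1a, Gapdh, Cxcl11, Il1b, Dll1, Ifitm2, Cebpa, Gclm, Ddit3, Idi1, Itgam, Cx3cr1, Ebi3, H2-Q4, Sdc3, Gas6, mt-Ti, Rnase4, Apoc2, Tm7sf3, Ikbkg, Fosl1, Csrnp1, Bax, Ripk1, Hspa1a, Srebf1, Hmgcs1, Hist1h2ac and Maf.

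No gene passed the test between mSTING and no_transgene (limma on log2(RPKM + 1), Benjamini-Hochberg adjusted p under 0.05). The calls were 0 higher and 0 lower of 12668 genes, each 0%. An unadjusted p under 0.05 was found for 460 genes, where 633 would be expected with no difference at all. Limma-voom on recovered reads called 0 genes too, and 481 genes there had an unadjusted p under 0.05. The smallest limma adjusted p was 0.0525, for Acod1 and Ffar4, and an exact permutation test of 2 against 2 libraries cannot go below p = 0.333. With mSTING library 2 left out, 24 genes passed as higher and 6 as lower, and with protein-coding genes alone 6 and 1. The comparison is therefore given as values per library, with the log2 difference (mSTING minus no_transgene) and its SE on the log2(RPKM + 1) scale, which understates differences of low genes. Both mSTING libraries lay above both no_transgene libraries for 1946 genes (15.4% of those tested), and below both for 2102 (16.6%). With a difference of at least 1 as well, 108 genes were higher in mSTING (0.853%) and 182 were lower (1.44%). The balance of these counts depends on the scaling: after median centring they were 132 higher and 139 lower, and after quantile normalization 128 and 150. Without mSTING library 1, 75 were higher and 144 lower. Without mSTING library 2, 238 were higher and 635 lower. Without no_transgene library 1, 115 were higher and 94 lower. Without no_transgene library 2, 252 were higher and 1072 lower.

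The 108 higher genes included many of the interferon response, and the 182 lower genes many short or non-coding ones. Of the higher genes, 84 were protein-coding and 34 belonged to the list of interferon-stimulated genes. In 100 of the 108, mSTING library 1 read higher than library 2, against 5761 of all 12668 genes tested. The median ratio of library 1 to library 2 over the 108 was 2.38. Of the lower genes, 65 were protein-coding and 69 were pseudogenes, and 0 were on the interferon list. Of all 12668 genes tested, 9029 were protein-coding, 2127 were pseudogenes and 54 were on that list. Since the list is small, nothing is read from the 0. Their median exon length was 604 bases, against 2992 bases over all genes tested. Library 1 of no_transgene held at least 2 times the RPKM of library 2 for 116 of the 182 lower genes (63.7%). The same held for 10.4% of all genes tested. In 17 of the 182, mSTING library 1 read higher than library 2, against 5761 of all 12668 genes tested. The median ratio of mSTING library 1 to library 2 over the 182 was 0.496, against 0.972 over all genes tested. The part of either library 1 in the lower set was not tested beyond the counts without it.

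**Figure D1:**
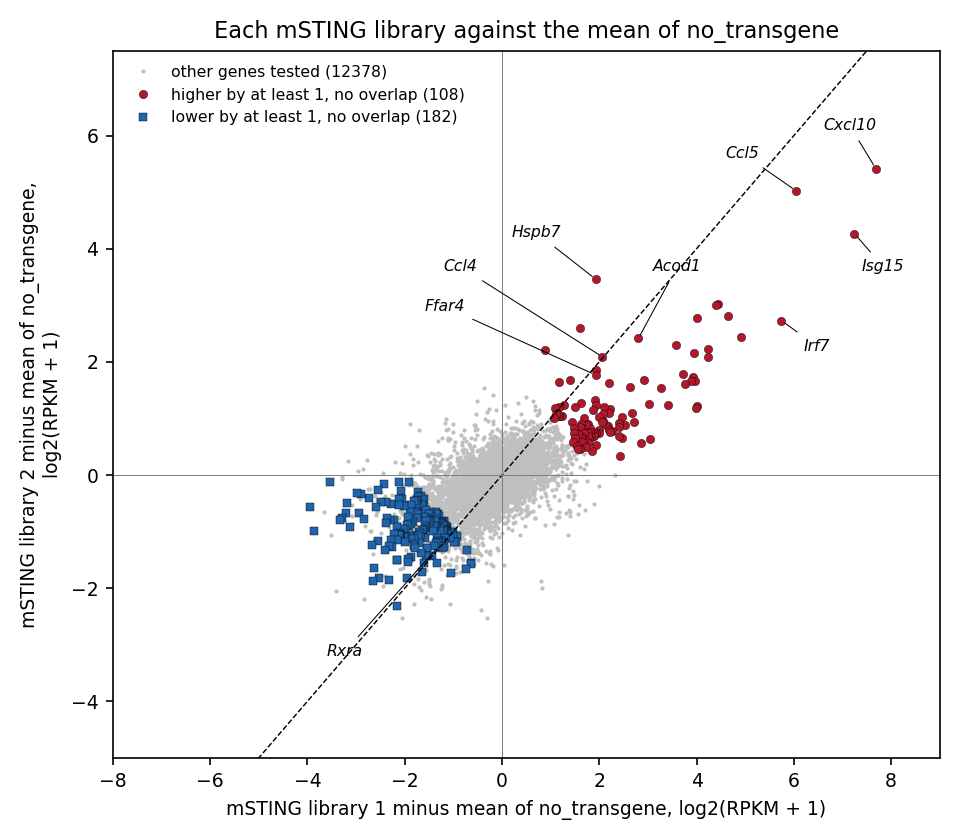
Each point is 1 of 12668 genes: the log2(RPKM + 1) value in mSTING library 1 (x axis) and library 2 (y axis) minus the mean of the 2 no_transgene libraries. Red circles are the 108 genes higher by at least 1 and blue squares the 182 lower by at least 1 without overlap of the groups. Below the dashed line of equal difference lie 100 of the red points. Library 1 of mSTING read higher than library 2 in 5761 of all 12668 genes.

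Most of the listed interferon-stimulated genes had higher values in mSTING, and 52 of the 54 tested were higher in library 1 of mSTING than in library 2. Of the 93 listed genes, 72 had both mSTING libraries above both no_transgene libraries and 2 had both below, against 12.8% and 15.7% of the 28639 genes with any reads. The median difference over all 93 was 0.93. Of the 93, 54 passed the filter on low values, and 18 of these did so through mSTING alone, with both no_transgene libraries under 1 RPKM. The choice of tested members therefore favours higher values. Among the 54, 34 were higher by at least 1 without overlap and 0 were lower, against 0.853% and 1.44% of all genes tested. Their median was 1.25, against -0.03 over all genes tested; it was 1.84 in mSTING library 1 and 0.74 in library 2. With mSTING library 1 left out, 18 of the 54 were higher by at least 1, against 0.592% of all genes tested. In bulk RNA, a response in fewer cells and a weaker response in each cell cannot be told apart.

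Promoter sequence of the higher genes was read from RefSeq windows of GRCm38.p6, from 250 bases before to 50 bases after each transcription start. The interferon-stimulated response element, bound by IRF3 and by the complex that contains STAT2 and IRF9, was searched on both strands by its core GAAANNGAAA. Of the 108 higher genes, 70 matched the table by symbol, and 21 of these (30.0%) held the core in at least 1 window. The core was held by 3.8% of the 7378 matched genes tested, by 6.78% of the 59 matched lower genes and by 3.44% of all 32851 windows. The NF-κB consensus, searched on both strands as GGG, a purine, any 2 bases, 2 pyrimidines and CC, was held by 15 of the matched higher genes (21.4%), by 12.05% of matched genes tested and by 8.46% of all windows. Over the list of interferon-stimulated genes, the core was held by 36 of 72 matched genes. Matches of the 2 motifs may overlap, and a match describes letters only. The 250 bases before the start are shown for 5 of the higher genes that carry the core, chosen to show its different places, 5′ to 3′ on the strand of the gene. Core matches are in capitals, and a capital run that reads TTTCNNTTTC holds the core on the other strand.
Isg15 chr4:156200819-156201068 (minus strand): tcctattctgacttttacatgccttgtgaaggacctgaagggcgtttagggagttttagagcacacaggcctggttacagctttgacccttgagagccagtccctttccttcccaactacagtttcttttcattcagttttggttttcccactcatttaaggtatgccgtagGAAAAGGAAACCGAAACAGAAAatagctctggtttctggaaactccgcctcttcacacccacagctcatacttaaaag
Cxcl10 chr5:92348890-92349139 (minus strand): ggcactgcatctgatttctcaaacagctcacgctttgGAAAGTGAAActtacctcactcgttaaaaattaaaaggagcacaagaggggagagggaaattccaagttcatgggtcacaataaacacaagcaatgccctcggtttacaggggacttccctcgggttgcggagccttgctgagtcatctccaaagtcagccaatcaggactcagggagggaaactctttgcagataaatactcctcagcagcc
Rsad2 chr12:26456453-26456702 (minus strand): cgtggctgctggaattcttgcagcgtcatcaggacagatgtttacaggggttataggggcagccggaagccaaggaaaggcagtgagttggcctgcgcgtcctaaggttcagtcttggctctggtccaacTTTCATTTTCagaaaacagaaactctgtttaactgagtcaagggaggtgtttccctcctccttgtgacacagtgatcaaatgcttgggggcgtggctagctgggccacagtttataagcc
Ifit1 chr19:34640639-34640888 (plus strand): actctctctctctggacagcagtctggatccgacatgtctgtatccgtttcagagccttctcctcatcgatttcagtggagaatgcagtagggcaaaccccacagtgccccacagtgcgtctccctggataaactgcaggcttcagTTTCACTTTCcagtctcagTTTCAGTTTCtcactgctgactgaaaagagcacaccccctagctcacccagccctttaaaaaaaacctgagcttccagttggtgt
Oas1a chr5:120907526-120907775 (minus strand): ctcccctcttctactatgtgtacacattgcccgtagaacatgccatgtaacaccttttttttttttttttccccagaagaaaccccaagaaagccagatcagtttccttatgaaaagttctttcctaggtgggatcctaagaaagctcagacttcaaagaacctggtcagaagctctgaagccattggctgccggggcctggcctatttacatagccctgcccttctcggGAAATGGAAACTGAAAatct

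In Isg15, 3 overlapping core matches run into each other, with first bases from -78 to -66 relative to the start. In Ifit1 the core occurs as 2 separate matches, at -104 and -85, and in Oas1a as 2 overlapping matches next to the start, at -20 and -14. Rsad2 holds 1 core match, at -120. Cxcl10 holds 1 core match at -213 and, between it and the start, 3 matches to the NF-κB consensus: gggaaattcc at -159 and the overlapping ggggacttcc and gggacttccc, the last at -103. Of the 21 genes with a core match, 9 had 2 or more, and the first match began between -222 and 31 bases from the start. The windows of Irf7, Irf9, Cmpk2, Acod1 and Ffar4 did not hold these core letters.

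**Figure D2:**
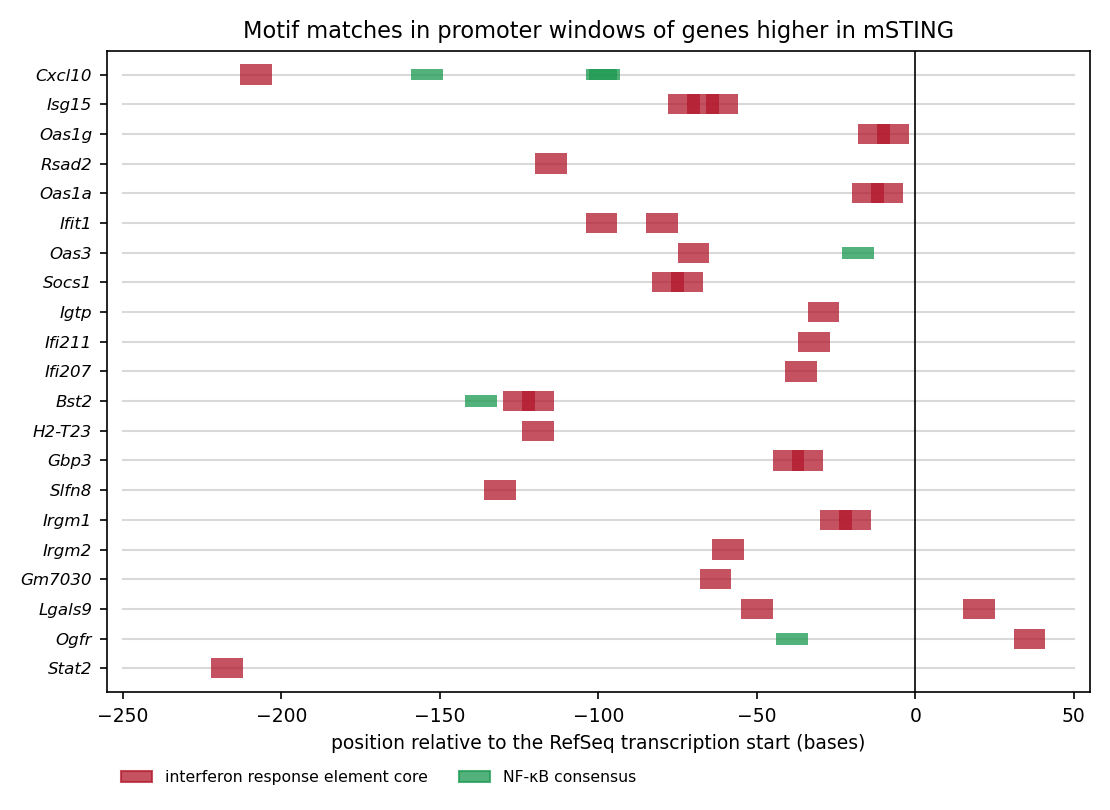
Positions of core matches to the interferon-stimulated response element (red) and of NF-κB consensus matches (green) in the promoter window of the 21 genes higher in mSTING that hold the core, in order of their difference, relative to the transcription start at 0; where a gene has several windows, 1 that holds the core is drawn. Cxcl10, at the top, holds 1 core and 3 NF-κB matches, and the core lies before the start in all but Ogfr, with Lgals9 holding 1 on each side.

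Isg15 encodes a ubiquitin-like modifier that is attached to proteins during infection. It had 247 and 30.5 RPKM in mSTING, against 0.477 and 0.81 RPKM in no_transgene, a difference of 5.76 ± 0.88 (SE, limma adjusted p = 0.435). The groups did not overlap, and library 1 of mSTING was 8.11 times library 2. Usp18, the protease that removes ISG15 and dampens the interferon receptor, had 26.1 and 6.6 RPKM in mSTING, against 0.0905 and 0.0815 RPKM in no_transgene. Ube2l6, the enzyme that carries ISG15 to its targets, had 19.4 and 7.88 RPKM in mSTING, against 2.95 and 5.58 RPKM in no_transgene. In both, mSTING library 1 was again the higher, and Usp18 was near 0 without the transgene while Ube2l6 was not. Trim25, a ubiquitin ligase that acts with the RNA sensor RIG-I, had closer values, 17.4 and 15.5 RPKM in mSTING, against 10.9 and 10.3 RPKM in no_transgene.

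The oligoadenylate synthetases sense double-stranded RNA and make short chains of oligoadenylate as an antiviral signal. Of 8 listed genes of this path, 7 lay above without overlap and 1 below, against 12.8% and 15.7% of genes with any reads. The 7 above were tested, 5 of them through mSTING alone, and 7 were higher by at least 1, against 0.853% of all genes tested, with a median of 2.75. With mSTING library 1 left out, 6 of the 7 were higher by at least 1, against 0.592% of all genes tested. Oas1a had 125 and 26.6 RPKM in mSTING, against 6.64 and 7.92 RPKM in no_transgene. Oas1g had 85.7 and 18.5 RPKM in mSTING, against 3.14 and 4.12 RPKM in no_transgene. Both had reads in every library, and the mSTING libraries lay apart by more than the no_transgene libraries. Oas3 had 22 and 5 RPKM in mSTING, against 0.571 and 0.93 RPKM in no_transgene. Oasl2, a relative that is also an active synthetase in mice, had 9.95 and 1.43 RPKM in mSTING, against 0.017 and 0.0357 RPKM in no_transgene. Oasl1, whose product limits translation of Irf7 in mice, had 20.4 and 7.19 RPKM in mSTING, against 0.0138 and 0.0265 RPKM in no_transgene, near 0 without the transgene. The Oas1 genes form a cluster of near-identical copies, among which reads may be divided.

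The IFIT proteins bind foreign RNA and block its translation. Ifit1 was listed at 0 in both no_transgene libraries and had 13.7 and 2.17 RPKM in mSTING, from 3212 and 509 reads. Set against the level that 3 reads per library would give in no_transgene, it was at least 306-fold higher in mSTING, or 83.8-fold without mSTING library 1. Ifit3 had 6.5 and 0.637 RPKM in mSTING, against 0.0413 and 0.0113 RPKM in no_transgene. Ifit2 had 1.33 and 0.578 RPKM in mSTING, against 0.725 and 0.304 RPKM in no_transgene. Ifit3 did not overlap between the groups and Ifit2 did, and both had 1 library above 1 RPKM and were not tested.

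Of the direct antiviral effectors, some had no reads without the transgene and others were abundant. Rsad2 encodes viperin, which makes a chain-terminating nucleotide, and Cmpk2, its neighbour in the genome, encodes a nucleotide kinase of the same path. Both were listed at 0 in both no_transgene libraries. Rsad2 had 14.5 and 3.46 RPKM in mSTING, at least 565-fold higher against 3 reads per library. Cmpk2 had 17.8 and 3.7 RPKM in mSTING, at least 649-fold higher. With mSTING library 1 left out, these bounds were 218-fold and 223-fold. Mx1, a dynamin-like GTPase that traps viral nucleoproteins, was not tested and had 3.58 and 0.261 RPKM in mSTING, against 0 and 0.00542 RPKM in no_transgene. Isg20, an exonuclease, had 23 and 2.44 RPKM in mSTING, against 0.485 and 0.483 RPKM in no_transgene. Bst2, the tether that holds budding virions on the cell, had 444 and 126 RPKM in mSTING, against 73.6 and 86.3 RPKM in no_transgene. Bst2 was thus abundant in both groups and still did not overlap. Ifitm3 and Ifitm2, membrane proteins that block viral entry, overlapped between the groups, with differences of 0.42 and -0.17.

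Sensors of nucleic acid that interferon induces differed among themselves: 5 of 10 lay above without overlap and 0 below, against 12.8% and 15.7% of genes with any reads. Dhx58 (LGP2), a regulator of the RIG-I-like receptors, had 19.8 and 5.23 RPKM in mSTING, against 0.926 and 1.41 RPKM in no_transgene. Ddx58, which encodes RIG-I, was not tested and had 2.59 and 0.589 RPKM in mSTING, against 0.148 and 0.0939 RPKM in no_transgene. Zbp1, a sensor of Z-form nucleic acid, was not tested either and had 3.84 and 0.37 RPKM in mSTING, against 0 and 0.0056 RPKM in no_transgene. For all of these mSTING library 1 was at least 3 times library 2. Cgas, the enzyme upstream of STING, overlapped, with 7.79 and 5.06 RPKM in mSTING, against 5.32 and 3.55 RPKM in no_transgene. Trex1, the DNA exonuclease that removes ligands of cGAS, had 163 and 68.4 RPKM in mSTING, against 18.4 and 23.4 RPKM in no_transgene, without overlap. Among GTPases of intracellular immunity, 12 of 14 listed genes lay above without overlap, against 12.8% of genes with any reads, although 5 passed the filter. Igtp had 16.6 and 4.94 RPKM in mSTING, against 1.82 and 1.73 RPKM in no_transgene. Gbp2, under the filter, had 2.17 and 0.307 RPKM in mSTING, against 0.0143 and 0.00786 RPKM in no_transgene. Among the other listed interferon-stimulated genes, Ms4a6d, under the filter, lay below, with 0.432 and 0.464 RPKM in mSTING, against 1.5 and 0.644 RPKM in no_transgene.

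Rtp4, another listed interferon-stimulated gene, had 21.3 and 7.35 RPKM in mSTING, against 0.0338 and 0.0139 RPKM in no_transgene. Its difference was 3.74 ± 0.41 (SE, limma adjusted p = 0.118). Slfn2, a schlafen protein that keeps immune cells quiescent, had 38.7 and 15.4 RPKM in mSTING, against 2.15 and 2.56 RPKM in no_transgene. Lgals3bp, a secreted glycoprotein, had 67.6 and 31.3 RPKM in mSTING, against 7.87 and 12.7 RPKM in no_transgene. Ifi27l2a, a small interferon-inducible membrane protein that is on no list here, had 514 and 92.3 RPKM in mSTING, against 12.3 and 21.1 RPKM in no_transgene. Sdc3, a heparan sulphate proteoglycan, had 61.1 and 11.6 RPKM in mSTING, against 2.82 and 3.15 RPKM in no_transgene. None of these 5 genes overlapped between the groups, and in each the mSTING libraries differed by over 2-fold. Nmi, an interferon-inducible partner of STAT proteins, was the tested list member with the lowest difference, at -0.39, and had 1.88 and 2.1 RPKM in mSTING, against 4.67 and 1.69 RPKM in no_transgene.

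Of the 28639 genes with any reads, 45 were at 0 in both no_transgene libraries with at least 3 reads in both mSTING libraries. Of these 45, 31 are neither unnamed models nor pseudogenes. The reverse count was not made, and depth was 27.7 and 101 M reads in no_transgene, against 88.1 and 88.2 M in mSTING. Nothing is therefore read from the count itself. Apol9a, of the apolipoprotein L family, had 2033 and 115 reads in mSTING and was at least 177-fold higher, or 18.9-fold without mSTING library 1. Ifit1bl2, of the IFIT family, had 870 and 139 reads in mSTING and was at least 83.1-fold higher. Gbp5, a guanylate-binding protein, had 416 and 59 reads in mSTING and was at least 39.1-fold higher. Without mSTING library 1 the bounds were 22.9-fold for Ifit1bl2 and 9.71-fold for Gbp5. These 3 had more reads in mSTING library 1 than in library 2, and so did Dll1, a Notch ligand, with 77 and 8 reads. Iigp1, an interferon-inducible GTPase, had 134 and 11 reads in mSTING and was at least 11.98-fold higher. Ifi44 had 83 and 4 reads in mSTING and was at least 7.16-fold higher, and Trim30c, of a family of ubiquitin ligases, had 26 and 4 reads and was at least 2.47-fold higher. In these 3 as well most reads were in mSTING library 1, and without it Iigp1 was at 0.0218 RPKM, Ifi44 at 0.0074 and Trim30c at 0.0264, with Ifi44 and Trim30c then under the mean level that 3 reads per library would give in no_transgene. Npw, a neuropeptide gene, had 3 and 6 reads in mSTING, with no fold given.

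**Figure D3:**
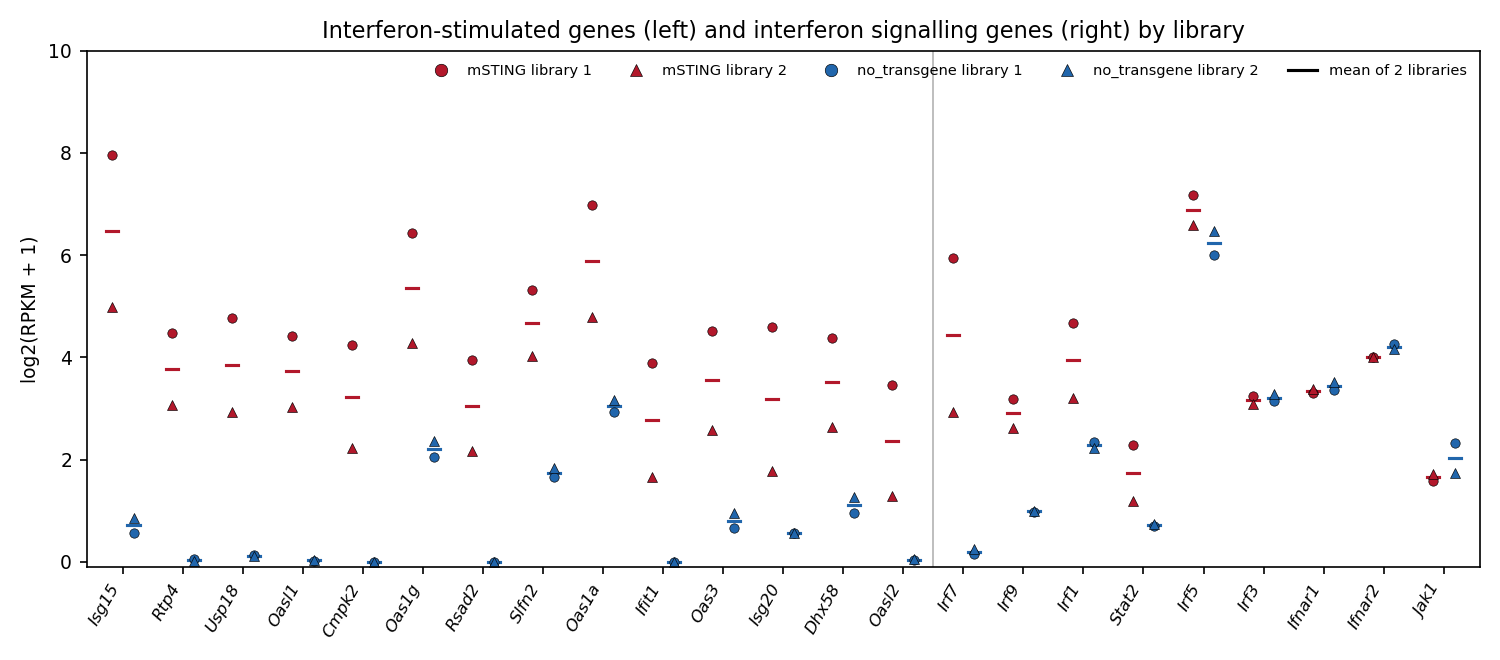
Values of log2(RPKM + 1) per library for the 14 interferon-stimulated genes with the largest difference (left of the line) and for 9 genes of interferon signalling (right); circles are library 1, triangles library 2 and bars the mean of the 2 libraries. The mSTING libraries lie above the no_transgene libraries for all 14 and for Irf7 to Irf5, with library 1 above library 2, while Irf3 overlaps.

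The interferons themselves were at or near 0 in both groups at 4 h. Ifnb1, the gene of interferon-β, had 4 and 6 reads in mSTING (0.0605 and 0.0908 RPKM) and 0 reads in no_transgene. No fold is given, since the mSTING mean lay under the mean level that 3 reads per library would give in no_transgene. Of the 12 listed ligands, 1 other had a read in the 4 libraries, Ifna2, with 0.011 and 0 RPKM in mSTING and 0 in no_transgene. Ifna1, Ifna4, Ifna5, Ifna6, Ifna11, Ifna12, Ifna13, Ifnab, Ifnl2 and Ifnl3 were at 0 in all 4. The 7 receptor and kinase genes tested had a median of -0.09 (-0.01 after median centring). Ifnar1, a chain of the receptor, overlapped, with 8.92 and 9.41 RPKM in mSTING, against 9.22 and 10.5 RPKM in no_transgene. Ifnar2, the other chain, had 15.2 and 15.1 RPKM in mSTING, against 18.1 and 16.9 RPKM in no_transgene, below without overlap.

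Of 9 transcription factors tested, 6 lay above without overlap, 5 of them by at least 1, against 15.4% and 0.853% of all genes tested. Without mSTING library 1, 2 of the 9 were higher by at least 1, against 0.592% of all genes tested, and 3 had passed the filter through mSTING alone. Irf7, the master regulator of interferon-α genes, had 60.5 and 6.61 RPKM in mSTING, against 0.115 and 0.181 RPKM in no_transgene, a difference of 4.24 ± 0.86 (SE, limma adjusted p = 0.828). Irf9, the DNA-binding part of the complex with STAT2, had 8.12 and 5.13 RPKM in mSTING, against 0.971 and 0.983 RPKM in no_transgene, a difference of 1.92 ± 0.21 (SE, limma adjusted p = 0.118). Library 1 of mSTING was 9.16 times library 2 for Irf7, and 1.58 times library 2 for Irf9. Irf1, which both interferon types and NF-κB can induce, had 24.6 and 8.21 RPKM in mSTING, against 4.05 and 3.67 RPKM in no_transgene. Stat2 had 3.87 and 1.27 RPKM in mSTING, against 0.627 and 0.67 RPKM in no_transgene. In both as well the groups did not overlap and mSTING library 1 was the higher. Irf5 had 144 and 95 RPKM in mSTING, against 63.4 and 87.9 RPKM in no_transgene, also without overlap. Irf3, the factor that TBK1 phosphorylates, overlapped, with 8.49 and 7.44 RPKM in mSTING, against 7.86 and 8.67 RPKM in no_transgene, as did Irf2 and Irf8, with differences of 0.03 and 0.08. Over all 9 factors the median was 1.01, with 1.56 in mSTING library 1 and 0.46 in library 2.

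Of the feedback inhibitors, Socs1, which blocks the JAK kinases, had 9.44 and 2.06 RPKM in mSTING, against 0.186 and 0.387 RPKM in no_transgene. Socs3, which acts mainly on interleukin-6 type receptors, had 9.5 and 6.29 RPKM in mSTING, against 4.17 and 6.11 RPKM in no_transgene. Both lay above without overlap, Socs3 by a narrow gap between the second libraries. Pias1, an inhibitor of STAT proteins, lay below without overlap, with 1.21 and 1.64 RPKM in mSTING, against 3.23 and 1.68 RPKM in no_transgene, and a difference of -0.15 without no_transgene library 1. The kinases that act below STING overlapped: Tbk1 had 4.36 and 4.96 RPKM in mSTING, against 4.39 and 4.56 RPKM in no_transgene. Ikbke, its relative, had 1.23 and 1.22 RPKM in mSTING, against 0.944 and 1.39 RPKM in no_transgene. Mavs, the adaptor of the RNA sensors, lay furthest below in the list, with 6.44 and 7.34 RPKM in mSTING, against 11.6 and 8.75 RPKM in no_transgene. Map3k7 and Ikbkg, on the branch to NF-κB, also lay below without overlap, with differences of -0.25 and -0.16. Over the 11 tested genes of the STING pathway itself the median was -0.01, and 0.07 after median centring, so its sign depends on the scaling.

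Of 22 listed chemokines, 11 lay above without overlap and 3 below, against 12.8% and 15.7% of genes with any reads. Among the 10 tested, 4 were higher by at least 1 without overlap and 2 lower, against 0.853% and 1.44% of all genes tested, with a median of 0.62. Without mSTING library 1, 5 were higher by at least 1, against 0.592% of all genes tested. Without no_transgene library 1, 1 was lower by at least 1, against 0.742%. Cxcl10 (chr5:92346638-92348889, GRCm38), the ligand of CXCR3 on T and NK cells, had 335 and 68.9 RPKM in mSTING, against 0.657 and 0.614 RPKM in no_transgene. Its difference of 6.55 ± 0.68 (SE, limma adjusted p = 0.111) was the largest of the 12668 genes. Ccl5 (RANTES), which draws T cells and monocytes, had 69.3 and 33.7 RPKM in mSTING, against 0.0376 and 0.0926 RPKM in no_transgene, a difference of 5.54 ± 0.54 (SE, limma adjusted p = 0.1002). Both were under 1 RPKM in both no_transgene libraries, so they passed the filter through mSTING. Ccl4, a macrophage inflammatory protein, had 26.4 and 26.8 RPKM in mSTING, against 2.9 and 9.99 RPKM in no_transgene. Ccl2, which draws monocytes, had 61.7 and 75.6 RPKM in mSTING, against 12.5 and 41.6 RPKM in no_transgene. Ccl3 had 58.4 and 84.8 RPKM in mSTING, against 27.5 and 46.9 RPKM in no_transgene. For these 3 the mSTING libraries were not ordered as for the interferon genes: library 2 was the higher, and no_transgene library 1 was the lowest of the 4. On the lower side, Pf4, a chemokine of platelets that macrophages also make, had 86 and 118 RPKM in mSTING, against 215 and 228 RPKM in no_transgene. Ccl6, a chemokine of mouse macrophages, had 0.424 and 0.847 RPKM in mSTING, against 2.75 and 2.04 RPKM in no_transgene, and passed the filter through no_transgene alone. Ccl9 had 5.15 and 8.67 RPKM in mSTING, against 12.5 and 10.7 RPKM in no_transgene, also without overlap. Cxcl9 and Cxcl11, the other ligands of CXCR3, were listed at 0 in both no_transgene libraries. Cxcl9 had 0.211 and 0.0113 RPKM in mSTING, and Cxcl11 had 0.559 and 0.0359 RPKM. Cxcl2, which draws neutrophils, was not tested and had 1.65 and 0.911 RPKM in mSTING, against 0.82 and 0.239 RPKM in no_transgene.

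Inflammatory cytokines were mostly low: of 21 listed genes 7 passed the filter, with a median of 0.32, and 3 of those lay above without overlap, against 15.4% of all genes tested. Tnf had 14.9 and 15.9 RPKM in mSTING, against 8.87 and 9.45 RPKM in no_transgene, a difference of 0.69 ± 0.27 (SE, limma adjusted p = 0.852). Csf1, the growth factor of macrophages, had 2.22 and 1.04 RPKM in mSTING, against 0.0615 and 0.249 RPKM in no_transgene. Tnf differed little between the libraries of a group, and Csf1 was above 1 RPKM in the mSTING libraries alone. Il6 had 0.0187 and 0.00934 RPKM in mSTING, against 0.0446 and 0.00407 RPKM in no_transgene. Il1b had 0.113 and 0.0357 RPKM in mSTING, against 0.454 and 0.0155 RPKM in no_transgene. Il12b had 0 and 0.0115 RPKM in mSTING and 0 in no_transgene, so none of these 3 reached 1 RPKM in any library. Ebi3, a subunit of heterodimeric interleukins, lay above without overlap by a narrow gap, with 12.1 and 8.09 RPKM in mSTING, against 8.01 and 7.92 RPKM in no_transgene. Il18, Il15 and Osm overlapped, with differences of 0.52, 0.32 and -0.11.

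NF-κB genes differed by small amounts. Of 26 tested of 38 listed, 12 lay above without overlap and 1 below, with a median of 0.36, and 2 were higher by at least 1. The shares over all genes tested were 15.4% above, 16.6% below and 0.853% higher by at least 1. Without mSTING library 1, 1 of the 26 was higher by at least 1, against 0.592% of all genes tested. The median was 0.48 in mSTING library 1 and 0.24 in library 2, and 0.60 without no_transgene library 2. The promoter windows of 14 of 29 matched list members held the NF-κB consensus, against 12.05% of matched genes tested. The interferon core was held by 0 of the 29, against 3.8% of matched genes tested, and nothing is read from that 0. The 2 members past 1 encode ankyrin-repeat proteins of the IκB family. Nfkbie (IκBε) had 9.5 and 5.37 RPKM in mSTING, against 1.36 and 2.51 RPKM in no_transgene. Bcl3, which acts on p50 and p52 in the nucleus, had 17.3 and 9.3 RPKM in mSTING, against 3.77 and 6.11 RPKM in no_transgene. Nfkbia (IκBα), the inhibitor that NF-κB itself induces, had 109.5 and 91.6 RPKM in mSTING, against 46.7 and 53.4 RPKM in no_transgene, a difference of 0.99 ± 0.19 (SE, limma adjusted p = 0.756). These 3 did not overlap between the groups, and no_transgene library 1 was their lowest library. Tnip1, which binds A20, had 47 and 35.3 RPKM in mSTING, against 18.9 and 25.8 RPKM in no_transgene, also without overlap.

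Among the subunits, Nfkb2 (p52) had 25 and 13.4 RPKM in mSTING, against 8.22 and 9.88 RPKM in no_transgene. Relb, its partner, had 10.3 and 7.6 RPKM in mSTING, against 3.42 and 5.17 RPKM in no_transgene. Nfkb1 (p50) had 18.8 and 13.4 RPKM in mSTING, against 12.3 and 12.2 RPKM in no_transgene. These lay above without overlap, while the other subunits overlapped. Rela had 53.7 and 51.1 RPKM in mSTING, against 37.2 and 51.4 RPKM in no_transgene. Rel had 1.11 and 1.09 RPKM in mSTING, against 1.42 and 0.968 RPKM in no_transgene. Tnfaip3 (A20), a feedback inhibitor and standard NF-κB target, overlapped too, with 9.35 and 13.1 RPKM in mSTING, against 12.8 and 12.1 RPKM in no_transgene. Of the target genes, Icam1, an adhesion molecule, had 35.8 and 20.8 RPKM in mSTING, against 14.9 and 14.6 RPKM in no_transgene. Traf1, under the filter, had 1.12 and 0.386 RPKM in mSTING, against 0.0736 and 0.106 RPKM in no_transgene, without overlap. Bcl2a1b, an anti-apoptotic relative of Bcl2, was lower by at least 1, with 3.36 and 4.94 RPKM in mSTING, against 21.9 and 5.02 RPKM in no_transgene. It belongs to a family of near-identical copies, and its difference rests on no_transgene library 1: without that library it was -0.24.

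Acod1 and Ffar4 gave the smallest adjusted p-values of all genes, with libraries that lay close together in both groups. Acod1 (chr14:103046977-103056573, GRCm38), which produces the antimicrobial metabolite itaconate, had 7.48 and 5.47 RPKM in mSTING, against 0.192 and 0.237 RPKM in no_transgene, a difference of 2.61 ± 0.20 (SE, limma adjusted p = 0.0525). Ffar4 (chr19:38097071-38114263), a receptor for long-chain fatty acids, had 4.9 and 4.29 RPKM in mSTING, against 0.518 and 0.589 RPKM in no_transgene, a difference of 1.85 ± 0.15 (SE, limma adjusted p = 0.0525). Both passed the filter through mSTING alone, and both passed at 0.05 with protein-coding genes alone, with median centring and with a pseudocount of 0.5. They did not pass with the 4 compared libraries alone in the fit, where the smallest limma adjusted p of any gene was 0.387. Nor did they pass with limma-voom on recovered reads, where the smallest adjusted p was 0.139. Of the 85 named genes among the 108, 13 had mSTING libraries within 1.5-fold of each other, and those that follow were chosen after their values were seen. Msantd3 had 3.17 and 2.95 RPKM in mSTING, against 0.11 and 0.0651 RPKM in no_transgene. Lysmd2 had 10.8 and 8.29 RPKM in mSTING, against 2.52 and 3.18 RPKM in no_transgene. Dlx2, a homeobox factor, had 8.01 and 6.9 RPKM in mSTING, against 2.4 and 3.36 RPKM in no_transgene. These 3 are among the 13, so their close mSTING libraries follow from that choice. Nkx1-1, another homeobox factor, had 5.26 and 5.07 RPKM in mSTING, against 1.37 and 1.82 RPKM in no_transgene. Ina, a neuronal intermediate filament, had 5.86 and 5.94 RPKM in mSTING, against 1.8 and 2.28 RPKM in no_transgene. Hspb7, a small heat shock protein known from muscle, had 4.56 and 15.2 RPKM in mSTING, against 0.0912 and 0.967 RPKM in no_transgene, with library 2 of mSTING the higher, as for Tmem173. Gfi1b, a zinc-finger repressor in blood cell development, had 4.07 and 2.15 RPKM in mSTING, against 0.394 and 0.281 RPKM in no_transgene. Hspb7 and Gfi1b are not among the 13. Of the 7 tested genes of the list that holds Acod1, 3 lay above without overlap, against 15.4% of all genes tested, and 0 below. Ass1, which makes argininosuccinate, had 19.8 and 9.62 RPKM in mSTING, against 5.29 and 3.34 RPKM in no_transgene, and Nampt, of the salvage of NAD, a difference of 0.46. Gclm and Srxn1, of the redox response, overlapped, with differences of -0.64 and -0.31.

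**Figure D4:**
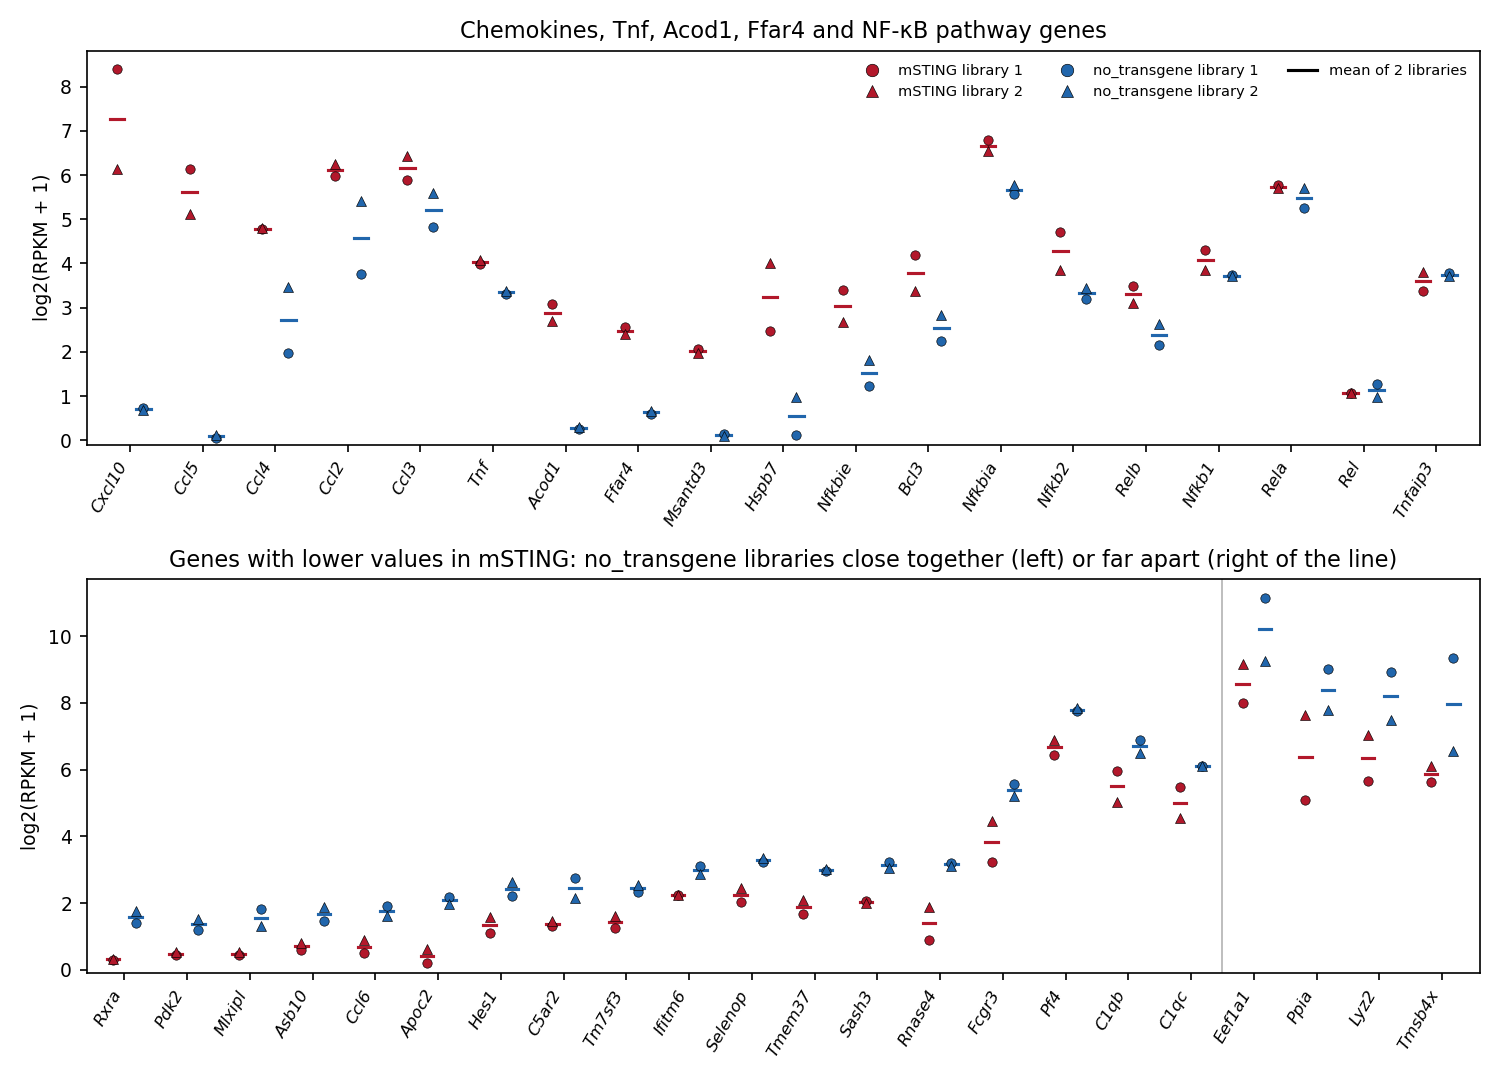
Values of log2(RPKM + 1) per library for genes higher in mSTING or of the NF-κB pathway (upper panel) and for genes with lower values in mSTING (lower panel); circles are library 1, triangles library 2 and bars the mean of the 2 libraries. Acod1, Ffar4, Msantd3 and Tnf have close libraries in both groups, and right of the line Eef1a1, Ppia, Lyz2 and Tmsb4x stand highest in no_transgene library 1.

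Genes of MHC class I presentation, which shows peptides from inside the cell to T cells, lay mostly higher in mSTING. Of 20 tested, 15 were above without overlap and 1 below, 4 of them above by at least 1, with a median of 0.73. The shares over all genes tested were 15.4% above, 16.6% below and 0.853% higher by at least 1. Without mSTING library 1, 1 of the 20 was higher by at least 1, against 0.592% of all genes tested. The median was 1.04 in mSTING library 1 and 0.32 in library 2. H2-T23, which encodes the non-classical molecule Qa-1, had 43.2 and 14.8 RPKM in mSTING, against 5.87 and 11.3 RPKM in no_transgene. Tap1, a chain of the peptide transporter, had 13.6 and 4.24 RPKM in mSTING, against 2 and 2.23 RPKM in no_transgene. Tapbp, which couples the transporter to MHC molecules, had 82.9 and 40.2 RPKM in mSTING, against 25.5 and 30.6 RPKM in no_transgene. H2-Q4, a non-classical molecule, had 19.8 and 12.1 RPKM in mSTING, against 4.57 and 6.6 RPKM in no_transgene. All 4 were highest in mSTING library 1, and so was H2-K1, a classical molecule, with 192 and 109 RPKM in mSTING, against 67.3 and 87.6 RPKM in no_transgene. H2 genes have near-identical copies, among which reads may be divided. B2m, the shared light chain, overlapped, with 164 and 193 RPKM in mSTING, against 547 and 156 RPKM in no_transgene, and no_transgene library 1 alone stood high.

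Genes of MHC class II, which shows peptides taken up from outside, were low apart from Cd74. Of 6 tested, 4 were below without overlap, against 16.6% of all genes tested. Since 4 of the 6 had passed the filter through no_transgene alone, the choice of tested members favours lower values, and nothing is read from that count. H2-Eb1 had 0.201 and 0.354 RPKM in mSTING, against 1.43 and 1.34 RPKM in no_transgene. H2-Aa had 0.182 and 0.357 RPKM in mSTING, against 1.44 and 1.01 RPKM in no_transgene. H2-Ab1 had 0.222 and 0.603 RPKM in mSTING, against 1.1 and 1.89 RPKM in no_transgene. Each had under 1 RPKM in both mSTING libraries and between 1 and 2 in both no_transgene libraries. Cd74, the invariant chain that guides class II molecules, overlapped, with 265 and 231 RPKM in mSTING, against 245 and 254 RPKM in no_transgene.

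Among the lower genes, 61 are named and protein-coding, and for 35 of these the no_transgene libraries lay within 2-fold of each other. No such limit was set on the mSTING libraries, and Cox7b, described below, is among the 35. Pdk2, Ifitm6 and Asb10, also given here, were lower by less than 1 and are not among the 61. Rxra (chr2:27676440-27762957, GRCm38), the retinoid X receptor that pairs with other nuclear receptors, had 0.224 and 0.262 RPKM in mSTING, against 1.65 and 2.4 RPKM in no_transgene. Its difference was -1.27 ± 0.16 (SE, limma adjusted p = 0.224), the smallest p of the genes with lower values. Of the settings run it passed in 1, with protein-coding genes alone. Mlxipl (ChREBP), a glucose-sensing factor, had 0.35 and 0.442 RPKM in mSTING, against 2.52 and 1.5 RPKM in no_transgene. Pdk2, which restrains pyruvate dehydrogenase, had 0.352 and 0.459 RPKM in mSTING, against 1.31 and 1.88 RPKM in no_transgene. Hes1, a Notch target that represses transcription, had 1.159 and 1.97 RPKM in mSTING, against 3.61 and 5.22 RPKM in no_transgene. The groups did not overlap in any of these 4 genes. Selenop, a selenium carrier, had 3.06 and 4.48 RPKM in mSTING, against 8.39 and 9.13 RPKM in no_transgene. Apoc2, the cofactor of lipoprotein lipase, had 0.154 and 0.544 RPKM in mSTING, against 3.55 and 2.93 RPKM in no_transgene, a difference of -1.66 ± 0.38 (SE, limma adjusted p = 0.852). Ifitm6 had 3.72 and 3.77 RPKM in mSTING, against 7.61 and 6.4 RPKM in no_transgene. Tm7sf3 had 1.39 and 2.05 RPKM in mSTING, against 4.03 and 4.87 RPKM in no_transgene. Asb10 had 0.526 and 0.756 RPKM in mSTING, against 1.76 and 2.69 RPKM in no_transgene. C5ar2, a receptor of the complement fragment C5a, had 1.47 and 1.74 RPKM in mSTING, against 5.77 and 3.46 RPKM in no_transgene. These 6, too, lay below without overlap. Rxra, Mlxipl, Pdk2, Apoc2 and Asb10 passed the filter through no_transgene alone, so their place among the genes tested favours lower values.

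Of 23 listed macrophage surface receptors, 14 lay below without overlap and 1 above, against 15.7% and 12.8% of genes with any reads. The 13 tested had a median of -0.36. Fcgr3, a receptor for IgG, had 8.33 and 21.2 RPKM in mSTING, against 46.9 and 35.7 RPKM in no_transgene. Csf1r, the growth factor receptor of the lineage, had 102 and 75.6 RPKM in mSTING, against 121 and 105 RPKM in no_transgene. Adgre1, which encodes the surface marker F4/80, had 1.78 and 2.89 RPKM in mSTING, against 8.47 and 4.22 RPKM in no_transgene. Itgam, the integrin chain CD11b, had 6.45 and 6.43 RPKM in mSTING, against 16.6 and 9.04 RPKM in no_transgene. Cx3cr1, the fractalkine receptor, had 2.81 and 2.06 RPKM in mSTING, against 6.96 and 2.88 RPKM in no_transgene. These 5 lay below without overlap, and no_transgene library 1 was the highest in each; without it the differences were -1.35, -0.26, -0.67, -0.43 and -0.19 in that order. Tlr2, the sensor of bacterial lipoproteins, was the receptor above, with 32.6 and 20.4 RPKM in mSTING, against 20.1 and 10.5 RPKM in no_transgene.

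Of 11 tested lineage factors, 1 lay above without overlap and 2 below, against 15.4% and 16.6% of all genes tested, with a median of 0.02. Spi1 (PU.1), the main transcription factor of the lineage, had 291 and 222 RPKM in mSTING, against 142 and 201 RPKM in no_transgene, and was the factor above. Maf (c-Maf) had 1.5 and 1.12 RPKM in mSTING, against 2.4 and 5.77 RPKM in no_transgene. Mef2c had 3.57 and 4.18 RPKM in mSTING, against 5.89 and 4.46 RPKM in no_transgene. Maf and Mef2c were the factors below, and Cebpa, another factor of myeloid cells, overlapped, with 32.8 and 33.8 RPKM in mSTING, against 24.9 and 42.8 RPKM in no_transgene. On none of the lists, and chosen after their values were seen, C1qb, a chain of the first complement component, had 60.9 and 32 RPKM in mSTING, against 119 and 89.1 RPKM in no_transgene. C1qc, another chain of it, had 43.5 and 22.5 RPKM in mSTING, against 68.4 and 67.9 RPKM in no_transgene. P2rx7, the ATP-gated channel, had 4.53 and 10.4 RPKM in mSTING, against 12.8 and 19.2 RPKM in no_transgene. Tgfbi, a matrix protein, had 23.6 and 11.8 RPKM in mSTING, against 40.6 and 34.3 RPKM in no_transgene. All 4 lay below without overlap.

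Of the 15 named genes with the largest negative differences, several were smaller by more than 1.5 times without 1 library. Tmsb4x, which binds actin, had 48.7 and 68 RPKM in mSTING, against 656 and 93.7 RPKM in no_transgene. Ppia, a housekeeping isomerase, had 33.1 and 198 RPKM in mSTING, against 513 and 219 RPKM in no_transgene. Eef1a1, the translation elongation factor, had 253 and 569 RPKM in mSTING, against 2285 and 609 RPKM in no_transgene. In each, no_transgene library 1 was the highest and mSTING library 1 the lowest of the 4, as for Lyz2, the macrophage lysozyme, with 50.02 and 132 RPKM in mSTING, against 486 and 180.4 RPKM in no_transgene. Without no_transgene library 1, the differences were -0.69 for Tmsb4x, -1.41 for Ppia, -0.68 for Eef1a1 and -1.14 for Lyz2, against -2.09, -2.03, -1.63 and -1.85 with all libraries. Without mSTING library 1 they were -1.85, -0.75, -1.05 and -1.16, so Lyz2 stayed past -1 in both cases. Bc1, a short non-coding RNA known from neurons, had 37 and 64.3 RPKM in mSTING, against 821 and 69.4 RPKM in no_transgene. Rpl7, a ribosomal protein, had 15.9 and 34.5 RPKM in mSTING, against 199.6 and 34.9 RPKM in no_transgene. Snora17, a small nucleolar RNA, had 2.84 and 2.66 RPKM in mSTING, against 27.9 and 3.97 RPKM in no_transgene, and Sf3b6, of the spliceosome, had 1.35 and 3.76 RPKM in mSTING, against 21.4 and 3.96 RPKM in no_transgene. In these 4, no_transgene library 1 stood far above the other 3 libraries, and without it the differences were -0.50, -0.55, -0.41 and -0.57 in that order. Cox7b, a subunit of cytochrome oxidase, had 6.8 and 80.8 RPKM in mSTING, against 167 and 86.2 RPKM in no_transgene. Dbi, which binds acyl-CoA, had 9.5 and 49.4 RPKM in mSTING, against 116 and 53.8 RPKM in no_transgene, and mt-Ti, the mitochondrial tRNA for isoleucine, had 0.493 and 8.71 RPKM in mSTING, against 12.5 and 12.7 RPKM in no_transgene. In these 3, mSTING library 1 stood far below, and without it the differences were -0.56, -0.67 and -0.49. Gas6, a ligand of TAM receptors, had 1.25 and 5.12 RPKM in mSTING, against 6.44 and 26.8 RPKM in no_transgene, and Rab3il1, an exchange factor, had 5.78 and 6.44 RPKM in mSTING, against 11.1 and 56.3 RPKM in no_transgene. In both, no_transgene library 2 was the highest library. Rnase4, a secreted ribonuclease, had 0.873 and 2.72 RPKM in mSTING, against 8.31 and 7.57 RPKM in no_transgene, and stayed past -1 with any library left out, as did Apoc2, Lyz2 and Gas6. With mSTING library 2 and no_transgene library 2 alone, 29 genes were lower by at least 1 and 51 higher, as counts of 1 library against 1.

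Most other lists lay near the median of all genes. The 16 cell cycle genes had a median of -0.15, the 13 stress response genes -0.11, the 17 cell death genes 0.16 and the 12 genes of sterol and lipid metabolism 0.02. Each of these signs turned with 1 library left out. The cell cycle median was 0.01 without no_transgene library 1. Without no_transgene library 2, the stress median was 0.09 and the cell death median -0.03. The sterol and lipid median was -0.12 without mSTING library 2. In the cell cycle list, Ccnb1, the mitotic cyclin, was the furthest below, at -1.13, or -0.26 without no_transgene library 1, and Mcm2 the furthest above, at 0.22. Mki67, Cdk1 and Tyms had differences of -1.04, -0.30 and -0.33, or -0.23, -0.11 and 0.01 without that library. In the stress list, Asns, which makes asparagine, was at -0.57, Xbp1 at -0.34, Hspa1a at 0.27, Hspa1b at 0.28, and Ddit3 (CHOP), a symbol that 2 gene models share, at 0.39. Of the sterol and lipid genes, Fasn and Srebf2 lay above without overlap, at 0.37 and 0.37, Hmgcs1 below, at -0.22, and Srebf1 and Idi1 overlapped, at 0.36 and -0.29. In the cell death list, Mcl1, Pmaip1 and Bax lay above without overlap, at 0.58, 0.54 and 0.32, and Ripk1 and Casp8 overlapped, at -0.24 and -0.43. In the same list, Cdkn1a (p21), a p53 target that stops the cell cycle, lay furthest above, with 55.3 and 29.7 RPKM in mSTING, against 13.4 and 17.8 RPKM in no_transgene. The 9 AP-1 genes had a median of 0.43, which was 0.15 without no_transgene library 1. Junb, a subunit of AP-1, had 179.9 and 171 RPKM in mSTING, against 59.7 and 120.4 RPKM in no_transgene, and Fosl1, another, had 4.09 and 7.13 RPKM in mSTING, against 1.63 and 3.14 RPKM in no_transgene. Csrnp1 and Ier5, other immediate early genes, lay above without overlap, at 1.02 and 0.55. Pgk1 and Hist1h2ac, from the list on library composition, were at -1.33 and 0.49. Of the 11 housekeeping genes on that list, 4 lay below and 2 above without overlap, against 16.6% and 15.4% of all genes tested. Lower by at least 1 were 2 of the 11, against 1.44%, and 1 without no_transgene library 1, against 0.742%. The median of the 11 was -0.21, or -0.01 without no_transgene library 1. Actb and Gapdh, the common reference genes, had differences of 0.18 and 0.12.

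**Figure D5:**
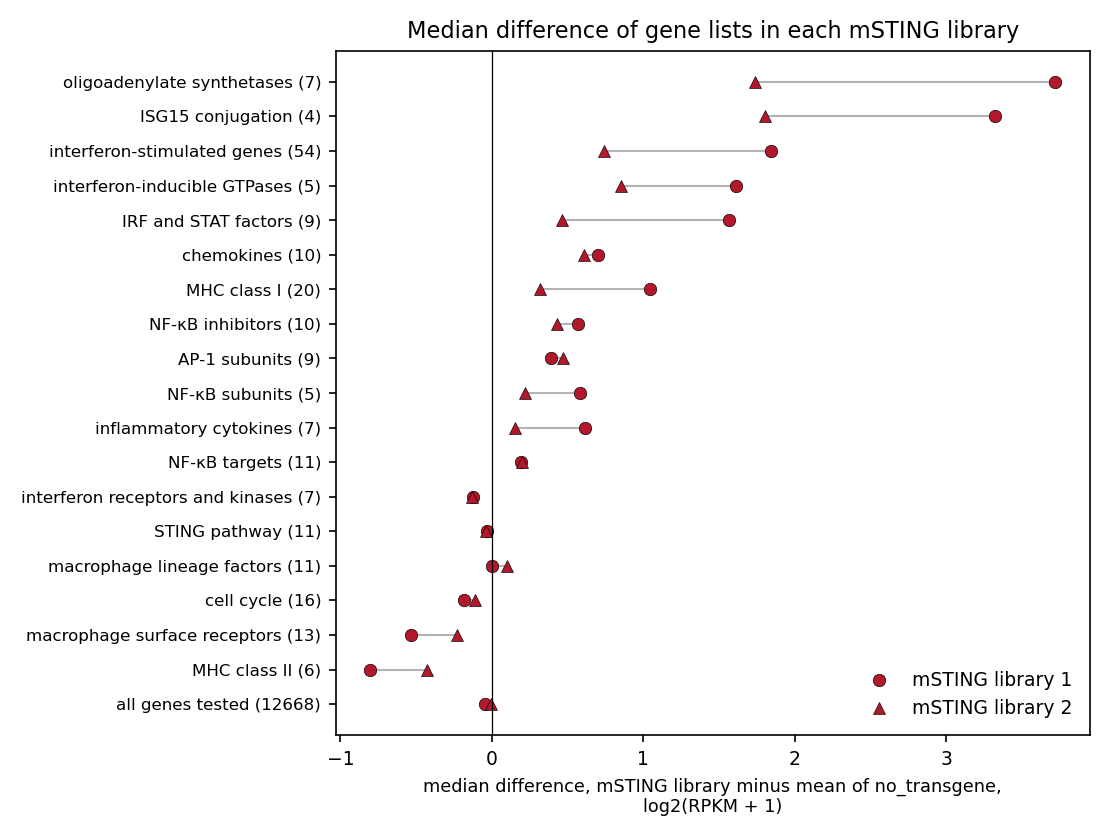
Median difference of each gene list in mSTING library 1 (circle) and library 2 (triangle) from the mean of the 2 no_transgene libraries, in log2(RPKM + 1), with the number of tested members in brackets. The oligoadenylate synthetases stand at 3.72 and 1.74, MHC class II at -0.80 and -0.43, and all genes near 0.

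The other transgene groups, set against the same no_transgene libraries, had these levels of the genes that led the comparison. Tmem173 had 22.7 and 15 RPKM in dCTT and 14.2 and 20.6 RPKM in zfCTT. Cxcl10 had 0.909 and 1.19 RPKM in dCTT and 1275 and 734 RPKM in zfCTT. Isg15 had 0.499 and 0.509 RPKM in dCTT and 582 and 292 RPKM in zfCTT. Tmem173 values overlapped between these groups and mSTING, while Cxcl10 and Isg15 lay under both mSTING libraries in dCTT and above both in zfCTT. Ifnb1 was at 0 in both dCTT libraries and had 18.7 and 5.17 RPKM in zfCTT. Acod1 had 0.486 and 0.338 RPKM in dCTT and 54.3 and 43.5 RPKM in zfCTT. Rxra had 2.07 and 2.37 RPKM in dCTT and 0.137 and 0.2 RPKM in zfCTT. Hspb7 and Dlx2 had another order: Hspb7 had 0.24 and 0.824 RPKM in dCTT and 0.252 and 0.529 RPKM in zfCTT, all below both mSTING libraries. Dlx2 had 3.22 and 3.49 RPKM in dCTT and 1.22 and 1.59 RPKM in zfCTT.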

How the data were processed

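Gene expression was measured by RNA-seq in 8 libraries, 2 in each of 4 groups. The authors deposited RPKM values per gene (reads per kilobase, scaled to library depth), with no raw reads used here. The submitters' processing notes name cutadapt 1.16, HISAT2 2.1.0, GRCm38 and mm10, without roles. For the counter and annotation release, and for strand, the setting was not given in the sources used here. Values were whole multiples of 1 read for 95.0 to 95.6% of values (tolerance 0.05 reads), which gave the recovered depth. Floors of 3 reads cover counting error only.

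Log2(RPKM + 1) values of the 8 libraries were fitted by group with limma 3.58.1 (R 4.3.3), trend on, leaving 4 residual degrees of freedom, on genes with at least 1 RPKM in at least 2 of the 4 libraries compared. P-values were adjusted by Benjamini-Hochberg over all 12668 genes, with 0.05 as threshold, and limma-voom ran on recovered reads. Exon overlaps come from GENCODE release M21, and promoter windows from RefSeq.

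Of 53715 identifiers, 53620 carried a symbol. The text names the 25 genes with the largest positive and the 15 with the largest negative differences without overlap, the 10 smallest p-values each way, up to 12 genes at 0 in no_transgene, and in each of 22 lists the 5 smallest p-values and the extremes. Every ligand, transcription factor and NF-κB subunit and a few fixed genes are also named. A few genes that the rule or the lists include are not reported here. Unnamed models, pseudogenes and genes with a mean under 1 RPKM were left out. Other list members, and genes described for close libraries or as complement and matrix genes, were chosen after their values were seen. The members and lists were chosen with earlier results of these data known. Alternatives covered the pseudocount, filter, scaling, libraries fitted, gene class, replicate block and each library left out.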

Additional observations from a re-analysis of the deposited data

How the results depend on the processing

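At an adjusted p of 0.05 (limma), the 0 genes higher became 11 with a pseudocount of 0.1, 3 with 0.5, 7 with no filter on low values, 3 with 6 libraries in the fit, 2 after median centring and 6 with protein-coding genes alone, where 1 gene was lower. The protein-coding fit and the comparison of 1 library against 1 were chosen after seeing the data. The 7 genes called with no filter were low and included 1 named gene, Six3. With each library left out in turn, 0 to 24 genes were higher and 0 to 6 lower, and in those fits the lone library of a group is assumed to vary like the other groups. The count higher by at least 1 was 66 with a mean of at least 5 RPKM (fewer genes tested), 165 when 0.1 was the pseudocount, 51 with 1 library against 1, and 75 to 252 with each library left out. The count lower by at least 1 was 65 with protein-coding genes alone, 29 with 1 library against 1, and 94 to 1072 with each library left out.

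The chemokine median was 0.19 with no filter, 0.95 with a mean of at least 5 RPKM, 0.29 with 1 RPKM in 2 of 8 libraries, 0.70 after median centring, and 0.52 to 0.78 with each library left out. The NF-κB median was 0.24 to 0.60 and the interferon-stimulated median 0.74 to 1.84 with each library left out. The median over all interferon ligands and signalling genes, 0.08 in the reported fit, turned to -0.0048 without mSTING library 1 and reached 0.19 otherwise. The cause of these shifts was not tested.

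Same-numbered libraries of mSTING and no_transgene deviated together at r = 0.0343, and over the 6 pairs of groups in the fit r lay between 0.0306 and 0.759, highest for no_transgene with dCTT. Since it was under 0.1 for 2 of the 6, the comparison given here among them, the reported fit did not pair the libraries. In the other pairs it was 0.254 or more, and the reported fit models no part that same-numbered libraries may share. A fit with the replicate block called 0 higher and 0 lower, with 764 genes at an unadjusted p under 0.05. With 1 library of each number per group, a block cannot change a difference of group means, so medians and counts without overlap say nothing on pairing. Single named genes kept their sign in all fits but 11 without no_transgene library 1, 5 without mSTING library 1 and 3 or fewer in any other. Voom on recovered reads called 0 genes either way; it was scaled by library sums, and TMM scaling was not run. Values of the interferon ligands rest on at most 6 reads per library in these 4 libraries, so their counting error is large.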
